A study of Mus musculus with 12 samples.

Results

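The genes described here are 55 mouse genes of DNA replication and of the E2F program, measured by RNA-seq in a B cell lymphoma line treated with WM-1119. They were taken by symbol from a list of E2F targets and replication factors and fall into 6 groups by role: 18 genes of origin licensing and firing, 16 of the replication fork, 4 of nucleotide synthesis, 4 of repair, 7 cell cycle regulators and 6 of chromatin and histone supply. All 55 matched 1 of the 26305 gene identifiers of the count table, and all 55 were among the 11997 genes with enough counts to be tested. The cells are EMRK1184luc, 1 line that arose in 1 female Eµ-Myc transgenic mouse, in which the immunoglobulin heavy chain enhancer drives Myc, and that carries a lentiviral luciferase construct. All groups share this genotype. The groups were 5 µM WM-1119 for 3 days, DMSO vehicle for 3 days, 5 µM WM-1119 for 6 days and DMSO vehicle for 6 days, with 3 libraries each. WM-1119 inhibits the histone acetyltransferases KAT6A and KAT6B, and the series asks which transcripts change when these are inhibited.

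Cells license replication origins in G1, when the origin recognition complex, Cdc6 and Cdt1 load the MCM helicase onto DNA, and fire them in S phase, when the kinases Cdc7-Dbf4 and cyclin E with its partner recruit Cdc45 and the GINS complex. E2F transcription factors, held in check by the RB family until cyclin-dependent kinases inactivate it, drive most of these genes together with those for nucleotide supply. The atypical factors E2f7 and E2f8 repress the same targets later in S phase, and MYC, the oncogene of this line, also feeds into the program.

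With WM-1119 the replication genes changed little, and not as 1 block. The thymidine-supply genes Tk1 and Tyms and the repressor gene E2f7 rose at both times, by at most 1.40-fold (E2f7 at 3 days). Dbf4, which activates the Cdc7 kinase, Rpa2, a subunit of the single-strand DNA binding protein RPA, and Msh6, a mismatch repair sensor, fell at both times, each by less than 1.2-fold. At 6 days 6 of the 18 licensing and firing genes, Dbf4 among them, were called lower, with Cdc6 the furthest down. These numbered 3 without WM-1119 replicate 3 of 6 days. The median log2 fold change of the 18 was -0.07 at 3 days and -0.09 at 6 days. In the test of the difference between times 0 of the 18 were called. Pcna, Rrm1, Rrm2, Mcm2, Mcm5 and E2f1 were called at no time. In bulk RNA a lower level can mean fewer cells in S phase or less RNA per cell, and these cannot be told apart. A change is called where the adjusted p of edgeR's quasi-likelihood test (two-sided, Benjamini-Hochberg over the 11997 genes) is below 0.05.

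At 3 days 6 of the 55 genes rose and 7 fell, so that 23.6% were called, beside 24.5% of all tested genes. Over all tested genes 11.9% were called higher and 12.6% lower at this time. At 6 days 4 of the 55 rose and 11 fell, 27.3% in all, beside 30.7% of all tested genes. With the replicate number as a block at 6 days, where same-numbered libraries deviated together, 6 were higher and 13 lower, beside 36.6% of all tested genes called in that fit. Of all tested genes 15.7% were higher and 15.0% lower at 6 days, so the 20.0% of the replication genes called lower stood a little above, and the 7.27% called higher below, the share for the whole table. The median log2 fold change of the 55 genes was 0.0049 at 3 days and -0.03 at 6 days, against 0.0018 and -0.0042 over all tested genes. The calls at 3 days rested in part on single libraries. Without WM-1119 replicate 3 of 3 days 3 genes were called higher and 4 lower, and those lower numbered 2 without WM-1119 replicate 2 and 4 without DMSO replicate 3 of the same day. The 11 lower calls at 6 days numbered 7 without WM-1119 replicate 1 and 6 without WM-1119 replicate 3 of 6 days.

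The sizes of the changes were small beside the rest of the transcriptome. At 3 days 2 of the 55 genes (E2f7 and Tk1) moved by more than 1.2-fold in either direction, which is 3.64%, beside 25.3% of all tested genes. At 6 days 4 of them did (Tk1, Tyms, E2f7 and Cdc6), which is 7.27%, beside 29.5% of all tested genes. Past 1.5-fold there were 0 of 55 at either time, beside 8.50% and 11.2% of all tested genes. The median absolute log2 fold change was 0.08 for the 55 genes at both times, against 0.13 at 3 days and 0.14 at 6 days over all tested genes. The replication genes were also more abundant than the typical tested gene, with a median of 115 CPM (counts scaled to a common library size and corrected for library composition) against 34.8 CPM, and their median standard error was 0.05 against 0.07 on the log2 scale. The part of abundance in the smaller changes was not tested. The smallest count of any of the 55 genes in any library was 372 reads. The part of counting error in changes of this size was not tested.

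**Figure D1:**
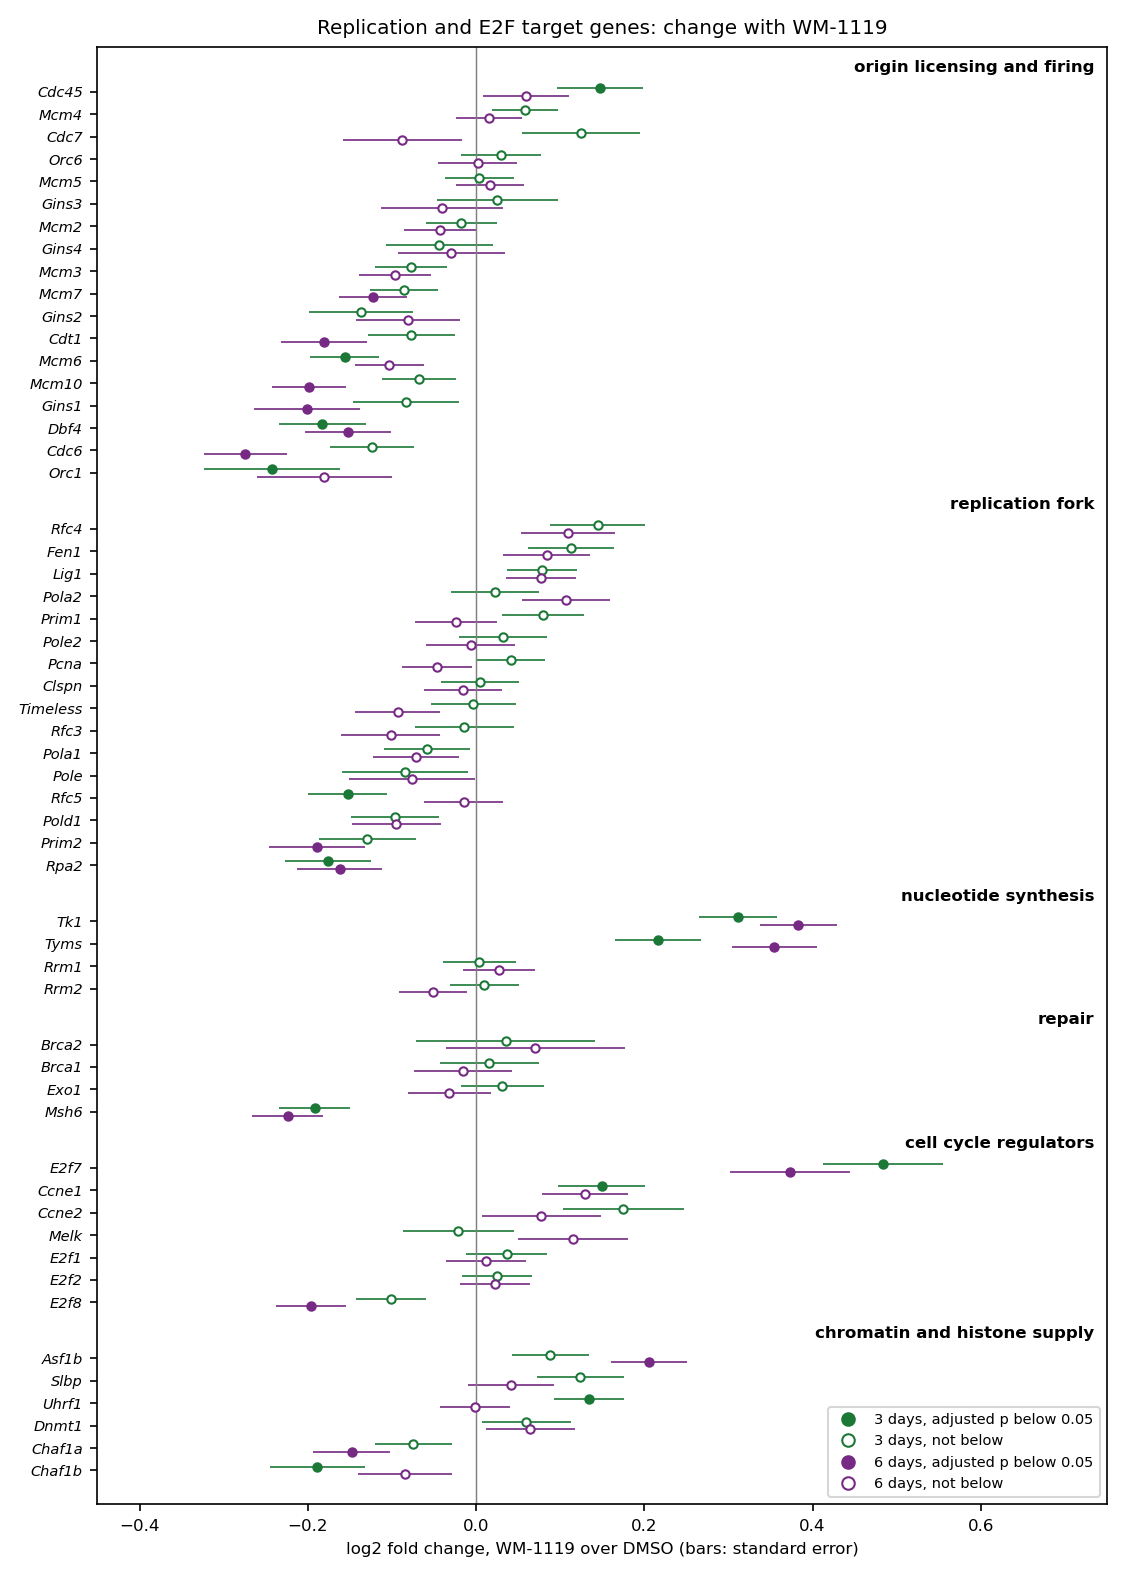
Log2 fold change of WM-1119 over DMSO for each of the 55 genes, at 3 days (green) and 6 days (purple), with the standard error as a bar; filled points have an edgeR adjusted p below 0.05, and genes are grouped by role. Most points lie close to 0, and those of Tk1, Tyms and E2f7 lie to the right of the others.

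**Figure D2:**
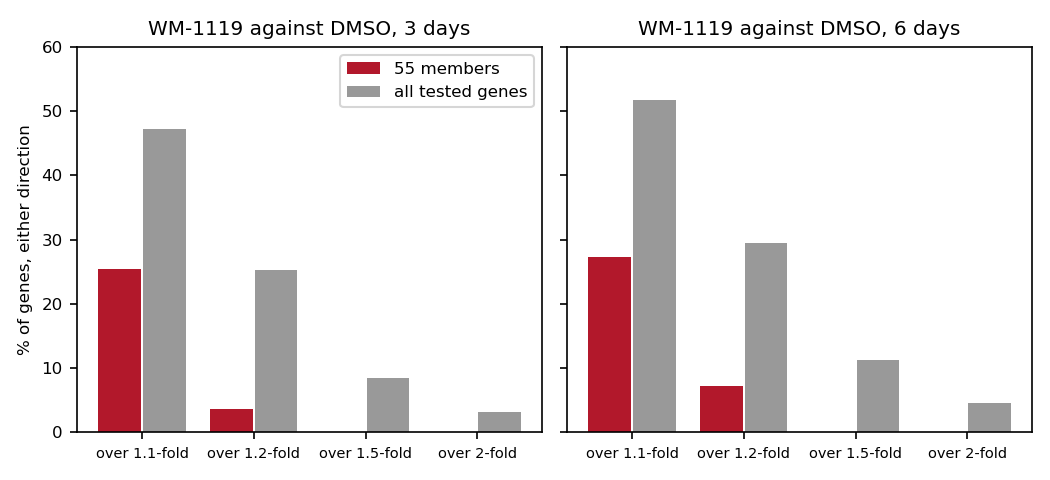
Share of genes (%, either direction) whose fold change exceeds 1.1, 1.2, 1.5 or 2, for the 55 genes (red) and for all 11997 tested genes (grey), at 3 days on the left and 6 days on the right. The red bars reach 25.5% and 27.3% past 1.1-fold, against 47.2% and 51.8% for grey, and are at 0 past 1.5-fold.

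Library totals were 18266488 to 28136250 counts with WM-1119 and 17863138 to 21638773 with DMSO at 3 days, and 14691369 to 17509662 with WM-1119 and 22749501 to 41607926 with DMSO at 6 days. Counts of the 55 genes made up between 0.949% and 0.991% of each library. The labels call the libraries of a group biological replicates and name no culture or day, so the spread behind the p-values is that between samples as they were prepared. At 6 days each WM-1119 library was smaller than each DMSO library. With all libraries thinned to 14691369 counts the calls at 3 days were 6 higher and 6 lower, and those at 6 days 4 higher and 12 lower. Markers of B cells, with 11 of 12 tested, summed to 5641 to 5891 and 5641 to 5939 CPM with WM-1119 and to 5334 to 5609 and 5343 to 5468 CPM with DMSO, at 3 and 6 days. The B cell markers moved both ways, as edgeR called 1 of them up and 5 down at 3 days, then 3 up and 4 down at 6 days. Markers of T cells summed to 1.40 to 3.24 CPM and of red cells to 0.488 to 1.13 CPM over all libraries. Of the 2 T cell markers tested 1 was called lower at each time, and the lowest log2 fold changes were -1.30 and -1.38. Myeloid markers, with 3 of 8 tested, summed to 109 to 115 and 125 to 129.8 CPM with WM-1119 and to 116 to 123 and 116 to 118 CPM with DMSO. Endothelial markers, with 1 of 5 tested, summed to 87.7 to 95.7 and 86.3 to 87.7 CPM with WM-1119 and to 90.5 to 98.7 and 98.7 to 104 CPM with DMSO. The 1 tested was called lower at 6 days (log2 fold change -0.22) and not at 3 days (-0.03). The 8 fibroblast markers, with 5 tested, ranged between 0.817 and 35.0 CPM with WM-1119 and between 1.26 and 15.9 CPM with DMSO at 6 days, and between 1.47 and 4.78 CPM and between 1.59 and 2.42 CPM with WM-1119 and DMSO at 3 days. In 5 libraries Col1a1 exceeded 1 CPM: WM-1119 replicate 2 of 3 days, and replicates 1 and 2 of 6 days with WM-1119 and with DMSO. Without these 5 libraries the 3-day comparison called 4 genes higher and 2 lower. The 6-day comparison, left with 1 library a group that was taken to vary like the others, called 3 higher and 1 lower. Of the 15 calls at 6 days those of Tk1, Tyms, E2f7 and Dbf4 were kept then, and edgeR adjusted p-values of the other 11 ran between 0.0527 and 0.757. The 11 log2 fold changes kept their direction, and 7 of them (Mcm7, Cdt1, Rpa2, Msh6, E2f8, Chaf1a and Asf1b) were at least as large as those reported. That of Prim2 was -0.06 then, beside -0.19, and that of Cdc6 -0.22, beside -0.27. The part of the fibroblast, myeloid and endothelial transcripts in the results was not tested. Libraries are scaled to each other, so a change in the total mRNA of a cell does not show in them.

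The promoter windows of the genes were searched for the E2F letters, because E2F control is what the genes are grouped by. RefSeq windows for GRCm38.p6, which run 250 bases before to 50 after an annotated start, were found for 47 of the 55 genes. Mcm4, Gins1, Gins2, Gins4, Pole, Prim2, Exo1 and Ccne2 were not matched to a window. The letters TTTCCCGC, TTTCGCGC, TTTGCCGC or TTTGGCGC stood on either strand in a window of 20 of the 47 genes (42.6%), beside 704 of 27025 genes with a window (2.60%) and 454 of the 9235 tested genes with a window (4.92%). The CCAAT box, searched as CCAAT on both strands, stood in 59.6% of the 47, in 41.1% of all genes with a window and in 43.9% of the tested ones. The CHR element of mitotic genes, searched as TTTGAA on both strands, stood in 21.3%, 20.2% and 14.4%. These last motifs were picked with the data at hand.

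E2F letters stood in promoters of genes called in either direction and of genes not called. Matches were found in 2 of the 6 genes that rose and 3 of the 7 that fell at 3 days, and in 15 of the 34 not called that have a window. At 6 days they were found in 1 of the 4 genes that rose, 4 of the 9 with a window that fell, and 15 of 34 not called. By role, 8 of 14 licensing and firing genes with a window held a match, 6 of 14 fork genes, 2 of 3 repair genes, 2 of 6 cell cycle regulators, 2 of 6 chromatin genes and 0 of 4 nucleotide synthesis genes. The windows of Mcm2, Pcna, Rrm2, E2f1 and Ccne1 held none. That of E2f1 lies wholly inside the gene position given below, so the sequence before the 5′ end of that position was not searched. These are matches of letters in a fixed window and no measure of binding.

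The windows of 5 genes are printed below, each 5′ to 3′ on the strand of the gene with E2F letters in capitals. They do not stand for the 47 genes, of which 20 held a match. Windows of Mcm2, Pcna, Rrm2, E2f1 and Ccne1, which held none, are not printed. Cdc6 (chr11:98907901-98908200, plus strand), with the largest called fall at 6 days, holds 1 match that begins 138 bases before the annotated start of this window. That window lies wholly inside the gene position given for Cdc6 below, so the match is downstream of the 5′ end of that position. Tk1 (chr11:117825965-117826264, minus strand), with the largest called rise at 6 days, holds none. The annotated start of its window also lies inside the gene position given below. Mcm6 (chr1:128359656-128359955, minus strand) has 3 matches, of which a TTTGGCGC at 110 and a TTTCGCGC on the other strand at 106 bases before the start overlap, and the third lies 47 bases before it. Msh6 (chr17:87974800-87975099, plus strand) has 1 match 15 bases after the start and E2f7 (chr10:110745189-110745488, plus strand) 1 match 198 bases before it, and these genes moved in opposite directions. Mcm6, Msh6 and E2f7 were picked for display after their values had been seen.
Cdc6: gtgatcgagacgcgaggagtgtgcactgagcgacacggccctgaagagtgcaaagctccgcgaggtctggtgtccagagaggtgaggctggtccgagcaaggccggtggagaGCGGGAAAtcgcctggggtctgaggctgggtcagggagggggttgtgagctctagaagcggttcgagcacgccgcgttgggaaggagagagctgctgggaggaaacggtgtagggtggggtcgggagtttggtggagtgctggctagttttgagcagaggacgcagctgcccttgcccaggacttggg
Tk1: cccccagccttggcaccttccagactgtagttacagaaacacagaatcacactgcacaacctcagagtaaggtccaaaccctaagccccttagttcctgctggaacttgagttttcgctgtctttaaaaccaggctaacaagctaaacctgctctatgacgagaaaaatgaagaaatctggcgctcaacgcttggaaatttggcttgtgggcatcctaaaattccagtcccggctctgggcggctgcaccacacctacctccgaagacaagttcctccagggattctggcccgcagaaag
Mcm6: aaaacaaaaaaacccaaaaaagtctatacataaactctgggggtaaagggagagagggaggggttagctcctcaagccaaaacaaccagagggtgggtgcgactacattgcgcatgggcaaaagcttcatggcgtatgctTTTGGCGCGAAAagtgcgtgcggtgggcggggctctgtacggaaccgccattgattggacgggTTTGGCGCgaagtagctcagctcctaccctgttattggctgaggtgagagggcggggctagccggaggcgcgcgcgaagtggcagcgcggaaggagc
Msh6: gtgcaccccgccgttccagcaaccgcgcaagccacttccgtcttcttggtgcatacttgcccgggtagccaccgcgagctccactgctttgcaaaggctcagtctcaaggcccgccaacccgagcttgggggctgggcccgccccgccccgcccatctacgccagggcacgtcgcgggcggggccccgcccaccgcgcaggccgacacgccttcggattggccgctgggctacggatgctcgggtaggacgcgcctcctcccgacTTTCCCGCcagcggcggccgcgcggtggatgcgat
E2f7: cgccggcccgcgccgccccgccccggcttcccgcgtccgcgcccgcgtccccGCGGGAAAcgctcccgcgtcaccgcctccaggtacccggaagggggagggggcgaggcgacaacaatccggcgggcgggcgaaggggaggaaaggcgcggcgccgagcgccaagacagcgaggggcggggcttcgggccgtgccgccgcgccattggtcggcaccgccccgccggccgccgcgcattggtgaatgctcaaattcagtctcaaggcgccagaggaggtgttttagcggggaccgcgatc

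Among the 18 genes of origin licensing and firing, 1 rose and 3 fell at 3 days, and 0 rose and 6 fell at 6 days. The share called lower was 16.7% and 33.3%, beside 12.6% and 15.0% of all tested genes, and the median log2 fold change of the group was -0.07 at 3 days and -0.09 at 6 days. The counts rested in part on single libraries: without WM-1119 replicate 2 of 3 days 0 were lower at 3 days, and without WM-1119 replicate 3 of 6 days 3 were lower at 6 days. Without the 5 Col1a1 libraries 0 were lower at 3 days and 1 at 6 days. Positions of genes below are those that RefSeq lists for the gene ID, and the counts were made on mm10 per the submitters' processing notes. Cdc6, the ATPase that loads the MCM helicase together with Orc1 and Cdt1 (chr11:98907709-98923942), had 73.2, 71.4 and 74.7 CPM with WM-1119, against 77.8, 83.1 and 77.8 CPM with DMSO at 3 days. At 6 days Cdc6 had 74.9, 71.9 and 73.0 CPM with WM-1119, against 92.0, 89.0 and 84.6 CPM with DMSO. The WM-1119 libraries lay below all DMSO libraries at both times, yet only the fall at 6 days, 1.21-fold, was called (log2 fold change -0.27 ± 0.05, edgeR adjusted p = 0.000230, beside -0.12 ± 0.05 and edgeR adjusted p = 0.0776 at 3 days). Its adjusted p at 6 days was 1.80e-05 to 0.167 over 23 alternatives, and it was lost only in the fit without the 5 Col1a1 libraries.

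Cdt1, the partner of Cdc6 in loading (chr8:122568015-122573130), had 117, 105 and 111 CPM with WM-1119, against 111, 119.7 and 119.9 CPM with DMSO at 3 days, where the groups overlap. Levels of Cdt1 at 6 days were 107, 110.4 and 111 CPM with WM-1119, against 120.3, 122 and 129.7 CPM with DMSO, with all WM-1119 libraries lower, and was called (log2 fold change -0.18 ± 0.05, edgeR adjusted p = 0.0106). Mcm10, which helps to start unwinding at the origin (chr2:4990724-5012791), had 108, 115 and 116 CPM with WM-1119, against 118, 117 and 121 CPM with DMSO at 3 days. At 6 days Mcm10 had 113, 108 and 112 CPM with WM-1119, against 126, 129 and 127 CPM with DMSO, so that WM-1119 libraries were lower at both times and the gap was wider at the later one. The fall was called at 6 days (log2 fold change -0.20 ± 0.04, edgeR adjusted p = 0.00152) and not at 3 days (log2 fold change -0.07 ± 0.04, edgeR adjusted p = 0.287). The 6-day calls of Cdt1 and Mcm10 were lost only in the fit without the 5 Col1a1 libraries (0.128 and 0.195), over ranges of 0.00313 to 0.128 and 0.000450 to 0.195.

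Dbf4, the regulatory subunit of the Cdc7 kinase (chr5:8396969-8422725), had 123, 116 and 116 CPM with WM-1119, against 137, 129 and 137 CPM with DMSO at 3 days. Levels of Dbf4 at 6 days were 128, 125 and 124 CPM with WM-1119, against 134, 134 and 151 CPM with DMSO. No WM-1119 library reached the lowest DMSO library of its day, and DMSO replicate 3 of 6 days was the highest of all. The gene fell at both times (log2 fold change -0.18 ± 0.05, edgeR adjusted p = 0.0130 at 3 days; log2 fold change -0.15 ± 0.05, edgeR adjusted p = 0.0299 at 6 days). The 3-day call was lost without WM-1119 replicate 2 (0.0634) or 3 (0.0584) of 3 days, without DMSO replicate 1 (0.0522) of 3 days and with the 5 Col1a1 libraries left out (0.0539), over a range of 0.00382 to 0.0634. The 6-day call was lost without WM-1119 replicate 2 (0.0602) or 3 (0.0977) of 6 days, without DMSO replicate 3 (0.162) of 6 days and in a fit of only the groups compared (0.0522), over 0.0209 to 0.162. Cdc7 itself, the catalytic subunit, was called at neither time (log2 fold change 0.12 and -0.09). A 6-day call of Cdc7 was gained without DMSO replicate 3 of 6 days (log2 fold change -0.17, edgeR adjusted p = 0.0340).

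The MCM helicase subunits were among the most abundant of the 55 genes and moved by small amounts. Mcm2 (chr6:88883474-88898780) had 382, 382 and 396 CPM with WM-1119, against 376, 400.4 and 397 CPM with DMSO at 3 days. At 6 days Mcm2 had 387, 391 and 408 CPM with WM-1119, against 391, 415 and 416 CPM with DMSO, and the groups overlap at both times (log2 fold change -0.02 ± 0.04 and -0.04 ± 0.04, edgeR adjusted p = 0.815 and 0.484). Mcm6 (chr1:128331575-128359705) had 552, 527 and 546 CPM with WM-1119, against 586, 609 and 615 CPM with DMSO at 3 days. Levels of Mcm6 at 6 days were 593, 608 and 579 CPM with WM-1119, against 616, 636 and 660.2 CPM with DMSO, so that the WM-1119 libraries were lower at each time. It was called lower at 3 days (log2 fold change -0.16 ± 0.04, edgeR adjusted p = 0.00804), and this call was lost without WM-1119 replicate 2 (0.0506) of 3 days and with the 5 Col1a1 libraries left out (0.0623), over a range of 0.00324 to 0.0623. At 6 days it missed the threshold (log2 fold change -0.10 ± 0.04, edgeR adjusted p = 0.0632), and a fit with the replicate number as a block at 6 days gave 0.0490. A 6-day call of Mcm6 was also gained without WM-1119 replicate 2 (0.0460) or DMSO replicate 1 (0.0442) of 6 days. Mcm7 was called lower at 6 days (-0.12, and -0.09 at 3 days). This call was lost without WM-1119 replicate 1 (0.0653) or 3 (0.0982) or DMSO replicate 2 (0.101) of 6 days. A fit of only the groups compared lost it too (0.0586), as did that without the 5 Col1a1 libraries, where the log2 fold change was -0.13. Over the other fits the adjusted p was 0.0128 to 0.101. Mcm3 was called in the average over both times alone (log2 fold change -0.09), and its 6-day change of -0.10 had an adjusted p of 0.0432 with the replicate block and 0.0986 without it. Mcm4 and Mcm5 were called nowhere, with log2 fold changes of 0.06 and 0.0041 at 3 days and 0.02 and 0.02 at 6 days.

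The remaining licensing and firing genes did not share a direction. Orc1, the large ATPase subunit of the origin recognition complex, fell at 3 days (log2 fold change -0.24, -0.18 at 6 days). That call was lost without WM-1119 replicate 2 (0.160) or 3 (0.0747) of 3 days, without DMSO replicate 2 (0.123) or 3 (0.0615) of 3 days and with the 5 Col1a1 libraries left out (0.0859), over a range of 0.0107 to 0.160, and one at 6 days was gained without DMSO replicate 1 (0.00980) of 6 days and at 1 common depth (0.0496). Cdc45, part of the active helicase, rose at 3 days (0.15, 0.06 at 6 days). It was lost without WM-1119 replicate 1 (0.0889), 2 (0.0528) or 3 (0.135) of 3 days, without DMSO replicate 1 (0.227) or 3 (0.0502) of 3 days, without WM-1119 replicate 1 (0.0520) or 3 (0.0510) of 6 days, without DMSO replicate 2 (0.0517) of 6 days and with the 5 Col1a1 libraries left out (0.0724), over 0.0161 to 0.227. Gins1, a subunit of the GINS complex that binds Cdc45 in that helicase, fell at 6 days (-0.20, -0.08 at 3 days). Its call was lost without WM-1119 replicate 1 (0.0644) or 3 (0.0576) of 6 days and without DMSO replicate 2 (0.0607) of 6 days. It was also lost without the 5 Col1a1 libraries, where the log2 fold change was -0.19. Over the other fits the adjusted p was 0.00809 to 0.0644. Gins2, Gins3, Gins4 and Orc6 were called at neither time, with log2 fold changes between -0.14 and 0.03.

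**Figure D3:**
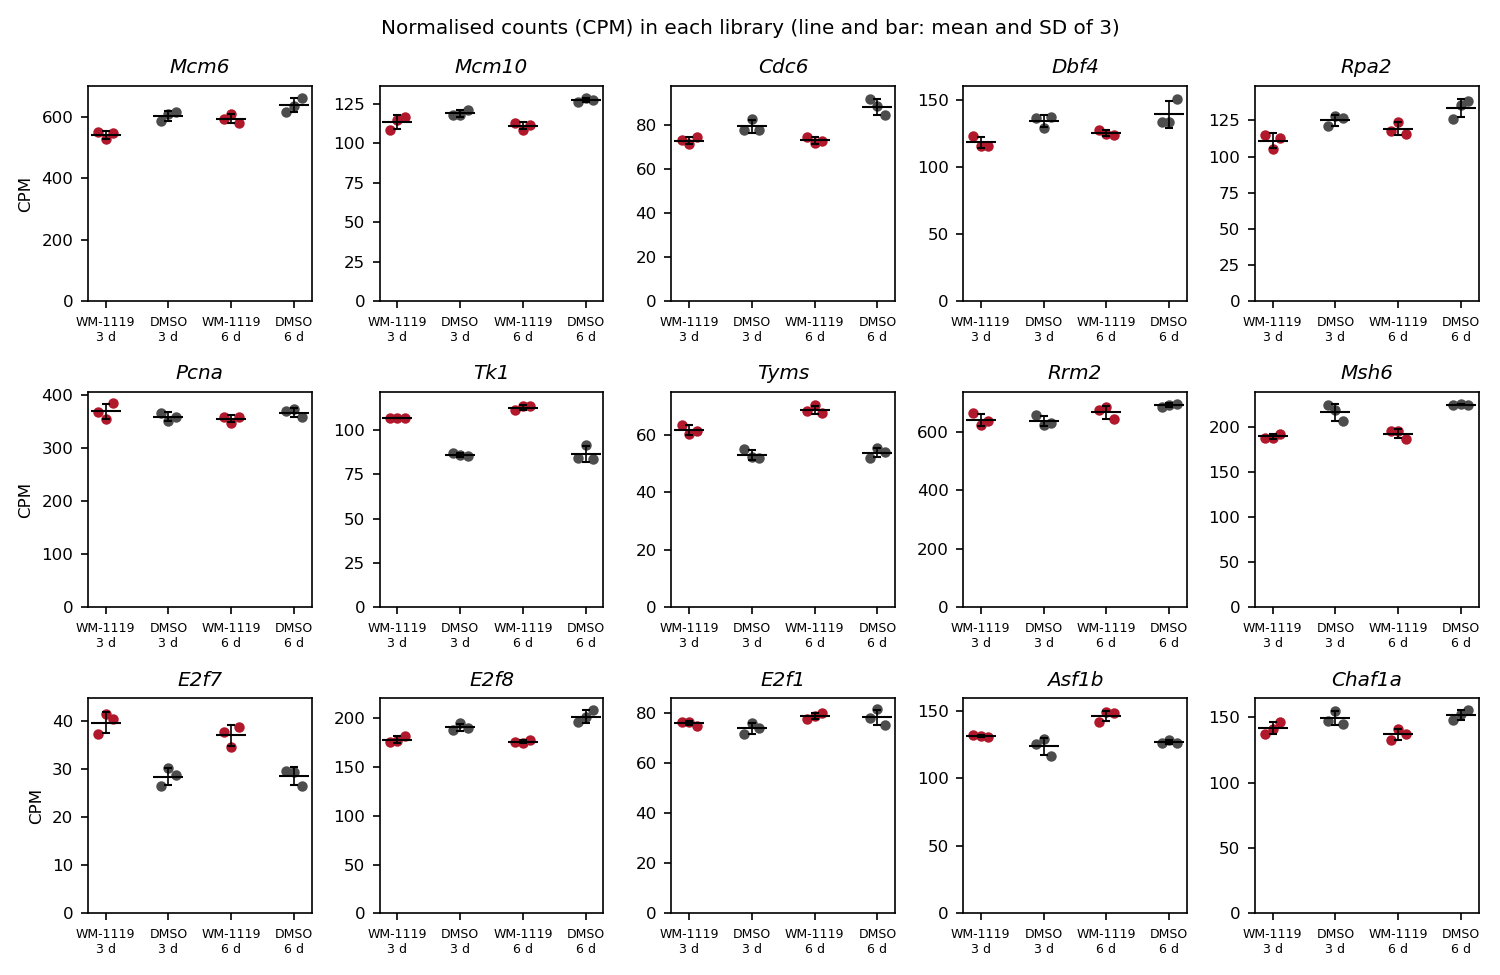
Normalised counts (CPM) of 15 of the genes in each library, in the order WM-1119 (red) and DMSO (dark grey) at 3 days, then WM-1119 and DMSO at 6 days; lines and bars are the mean and SD of 3 libraries, and each axis starts at 0. Red points of Tk1, Tyms and E2f7 lie above the grey points of the same day, those of Dbf4, Rpa2 and Msh6 lie below them, and those of Pcna and E2f1 overlap with them.

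At the replication fork 0 of 16 genes rose and 2 fell at each time, 12.5%, beside 12.6% and 15.0% of all tested genes called lower and 11.9% and 15.7% called higher. Rpa2 (chr4:132768360-132778746) had 115, 105 and 113 CPM with WM-1119, against 121, 128 and 127 CPM with DMSO at 3 days. At 6 days Rpa2 had 118, 124 and 116 CPM with WM-1119, against 126, 136 and 138 CPM with DMSO, and WM-1119 libraries were below all DMSO libraries on both days. It fell at both times (log2 fold change -0.18 ± 0.05, edgeR adjusted p = 0.0150 at 3 days; log2 fold change -0.16 ± 0.05, edgeR adjusted p = 0.0192 at 6 days). The 3-day call was lost without WM-1119 replicate 2 (0.103) of 3 days and with the 5 Col1a1 libraries left out (0.109), over a range of 0.0114 to 0.109. The 6-day call was lost without WM-1119 replicate 3 (0.0908) or DMSO replicate 2 (0.0573) or 3 (0.0649) of 6 days, over 0.00874 to 0.0908. It was also lost without the 5 Col1a1 libraries, where the log2 fold change was -0.26.

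Rfc5, a subunit of the clamp loader that places PCNA on DNA (chr5:117379145-117389023), had 106, 111 and 106 CPM with WM-1119, against 118, 121 and 121 CPM with DMSO at 3 days. Levels of Rfc5 at 6 days were 114, 119 and 106 CPM with WM-1119, against 117, 112 and 114 CPM with DMSO, so that the groups were apart at 3 days and overlap at 6 days. It fell at 3 days (log2 fold change -0.15 ± 0.05, edgeR adjusted p = 0.0215) and not at 6 days (log2 fold change -0.01 ± 0.05, edgeR adjusted p = 0.842), and the test of the difference between times did not call it (edgeR adjusted p = 0.614). The 3-day call was lost without WM-1119 replicate 1 (0.0604) or 3 (0.0816) of 3 days and without DMSO replicate 3 (0.0548) of 3 days, over 0.0170 to 0.0816. Prim2, the large subunit of primase (chr1:33453808-33669808), had 62.7, 57.8 and 59.6 CPM with WM-1119, against 65.7, 69.4 and 61.5 CPM with DMSO at 3 days. At 6 days Prim2 had 58.1, 59.7 and 65.1 CPM with WM-1119, against 71.0, 69.2 and 68.0 CPM with DMSO, with all WM-1119 libraries lower only at this time. It was called at 6 days (log2 fold change -0.19 ± 0.06, edgeR adjusted p = 0.0163) and not at 3 days (edgeR adjusted p = 0.113). That call was lost without WM-1119 replicate 1 (0.0666) of 6 days and without DMSO replicate 1 (0.0625) of 6 days. It was also lost without the 5 Col1a1 libraries, where the log2 fold change was -0.06. Over the other fits the adjusted p was 0.00909 to 0.0666.

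The best known fork gene, Pcna, which encodes the sliding clamp (chr2:132249286-132253180), had 369, 356 and 385 CPM with WM-1119, against 368, 351 and 360.2 CPM with DMSO at 3 days. Levels of Pcna at 6 days were 359, 349 and 360.0 CPM with WM-1119, against 371, 374 and 359 CPM with DMSO, and the groups overlap at both times (log2 fold change 0.04 ± 0.04, edgeR adjusted p = 0.516 at 3 days; log2 fold change -0.05 ± 0.04, edgeR adjusted p = 0.431 at 6 days). RefSeq also lists copies named Pcna-ps1, Pcna-ps2 and Tyms-ps. The treatment of reads with several matches in the genome was not stated, so counts of Pcna and Tyms carry that uncertainty. Pola1, the catalytic subunit of the primase-linked polymerase (chrX:93304766-93632387), had 136, 144 and 140.0 CPM with WM-1119, against 149.8, 148 and 140.2 CPM with DMSO at 3 days. At 6 days Pola1 had 153, 147 and 145 CPM with WM-1119, against 152, 147 and 168 CPM with DMSO, again with overlap (log2 fold change -0.06 ± 0.05, edgeR adjusted p = 0.447 at 3 days; log2 fold change -0.07 ± 0.05, edgeR adjusted p = 0.312 at 6 days). Averaged over both times 4 more fork genes passed: Rfc4 (log2 fold change 0.13), the flap nuclease Fen1 (0.10) and the ligase Lig1 (0.08), which joins Okazaki fragments, were higher, and Pold1 (-0.10), the lagging-strand polymerase, was lower. A 3-day call of Rfc4 was gained with upper-quartile scaling (0.0344), in a fit of only the groups compared (0.0475) and at 1 common depth (0.0290). Without DMSO replicate 3 of 6 days Rfc4 was called at both times (0.0408 and 0.0340). Pola2, Pole, Pole2, Prim1, Rfc3, Timeless and Clspn were called in no comparison. The replicate block at 6 days called Pola2, the second subunit of the primase-linked polymerase, higher (log2 fold change 0.11, edgeR adjusted p = 0.0360, against 0.135 without it).

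Nucleotide synthesis held the clearest rises: 2 of its 4 genes rose at each time, beside 11.9% and 15.7% of all tested genes called higher. Tk1, the thymidine kinase of the salvage route (chr11:117815519-117826087), had 107, 107 and 107 CPM with WM-1119, against 87.0, 85.9 and 84.9 CPM with DMSO at 3 days. Levels of Tk1 at 6 days were 111, 113 and 113 CPM with WM-1119, against 84.1, 91.3 and 83.6 CPM with DMSO. Each WM-1119 library was above each DMSO library of its day, and the gap was several times the spread within a group. The rise was 1.24-fold at 3 days (log2 fold change 0.31 ± 0.05, edgeR adjusted p = 3.52e-05) and 1.30-fold at 6 days (log2 fold change 0.38 ± 0.05, edgeR adjusted p = 1.62e-06). Over the alternatives the adjusted p was 7.22e-08 to 0.000566 at 3 days and 9.51e-12 to 0.00244 at 6 days.

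Tyms, thymidylate synthase, which makes dTMP by the other route (chr5:30038546-30073645), had 63.6, 60.2 and 61.3 CPM with WM-1119, against 54.99, 52.3 and 51.9 CPM with DMSO at 3 days. At 6 days Tyms had 68.3, 70.5 and 67.5 CPM with WM-1119, against 52.1, 55.4 and 54.2 CPM with DMSO, and no library of 1 group reached the range of the other. It rose 1.16-fold at 3 days (log2 fold change 0.22 ± 0.05, edgeR adjusted p = 0.00358) and 1.28-fold at 6 days (log2 fold change 0.35 ± 0.05, edgeR adjusted p = 1.56e-05), with adjusted p-values of 0.00179 to 0.0204 and 5.28e-08 to 0.0481 over the alternatives. The subunits of ribonucleotide reductase, which makes the deoxynucleotides, were not called. Rrm2 (chr12:24708254-24714146) had 666, 624 and 637 CPM with WM-1119, against 658, 625 and 630.3 CPM with DMSO at 3 days. Levels of Rrm2 at 6 days were 675, 686 and 644 CPM with WM-1119, against 686, 693 and 698 CPM with DMSO, where the WM-1119 libraries lay below the others, by a narrow gap at the closest (log2 fold change 0.01 ± 0.04, edgeR adjusted p = 0.896 at 3 days; log2 fold change -0.05 ± 0.04, edgeR adjusted p = 0.374 at 6 days). Rrm1 had log2 fold changes of 0.004 and 0.03.

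Of the 4 repair genes Msh6 alone was called, lower at both times. Msh6, which recognises mismatches left by replication (chr17:87975050-87990892), had 189, 188 and 193 CPM with WM-1119, against 225, 219 and 207 CPM with DMSO at 3 days. At 6 days Msh6 had 196, 196 and 187 CPM with WM-1119, against 225, 226 and 225 CPM with DMSO, so that WM-1119 libraries were below all DMSO libraries on each day. It fell 1.14-fold at 3 days (log2 fold change -0.19 ± 0.04, edgeR adjusted p = 0.00206) and 1.17-fold at 6 days (log2 fold change -0.22 ± 0.04, edgeR adjusted p = 0.000366), with ranges of 0.000418 to 0.0250 and 1.11e-05 to 0.0527 over the alternatives. The upper end at 6 days is the fit without the 5 Col1a1 libraries, which lost the call.

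Brca1, an organiser of homologous recombination (chr11:101488761-101551955), had 77.8, 94.1 and 89.8 CPM with WM-1119, against 85.2, 88.6 and 85.6 CPM with DMSO at 3 days. Levels of Brca1 at 6 days were 95.6, 88.8 and 96.0 CPM with WM-1119, against 95.1, 93.3 and 94.9 CPM with DMSO, and neither time was called (log2 fold change 0.02 ± 0.06, edgeR adjusted p = 0.880 at 3 days; log2 fold change -0.02 ± 0.06, edgeR adjusted p = 0.870 at 6 days). Brca2, which acts in homologous recombination (chr5:150522297-150570147), had 45.0, 61.8 and 50.6 CPM with WM-1119, against 51.0, 52.6 and 51.1 CPM with DMSO at 3 days. At 6 days Brca2 had 58.3, 46.3 and 59.1 CPM with WM-1119, against 51.9, 51.0 and 52.7 CPM with DMSO, so the WM-1119 libraries spread around the DMSO libraries (log2 fold change 0.04 ± 0.11, edgeR adjusted p = 0.852 at 3 days; log2 fold change 0.07 ± 0.11, edgeR adjusted p = 0.664 at 6 days). Exo1, a nuclease of mismatch repair and of end resection (chr1:175880768-175911396), had 83.5, 80.6 and 77.9 CPM with WM-1119, against 75.8, 80.3 and 80.8 CPM with DMSO at 3 days. Levels of Exo1 at 6 days were 83.6, 85.0 and 82.8 CPM with WM-1119, against 83.8, 83.8 and 89.5 CPM with DMSO, and it was not called (log2 fold change 0.03 ± 0.05, edgeR adjusted p = 0.695 at 3 days; log2 fold change -0.03 ± 0.05, edgeR adjusted p = 0.670 at 6 days).

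Brca2, Pole, Brca1 and Dnmt1 have the greatest gene lengths of the 55 in the count table, 10734, 7129, 6648 and 6304 bases. They had the 4 largest coefficients of variation among WM-1119 libraries of 3 days, 16.3%, 10.8%, 9.70% and 9.07%. In DMSO of 3 days these were 1.70%, 2.94%, 2.19% and 3.62%. In each of these genes WM-1119 replicate 1 was the lowest library of its group at 3 days. The same library was low over all 1224 tested genes longer than 6000 bases, with a median of -0.06 on the log2 scale from its group mean, against 0.06 in replicate 2 and 0.01 in replicate 3. For the 4000 genes shorter than 2000 bases the medians were 0.01, -0.03 and 0.01. Among WM-1119 libraries of 6 days replicate 2 was low over the long genes (-0.06) and Brca2 was lowest there too. In WM-1119 of 6 days the coefficients of variation of the 4 genes were 13.1%, 8.31%, 4.32% and 1.24%, so that Dnmt1 ranked 51 of 55 there. The part of this length pattern in the spread of these genes was not tested. Over all 55 genes the median coefficient of variation was 2.88% with WM-1119 and 3.37% with DMSO at 3 days, and 2.73% and 3.58% at 6 days.

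Among the 7 cell cycle regulators 2 rose and 0 fell at 3 days, and 1 rose and 1 fell at 6 days, 28.6% each time beside 24.5% and 30.7% of all tested genes. E2f7, an atypical E2F that represses E2F targets (chr10:110745439-110787384), had 37.2, 41.5 and 40.4 CPM with WM-1119, against 26.5, 30.1 and 28.8 CPM with DMSO at 3 days. At 6 days E2f7 had 37.7, 34.6 and 38.9 CPM with WM-1119, against 29.7, 29.5 and 26.4 CPM with DMSO, with every WM-1119 library above every DMSO library of its day. It rose 1.40-fold at 3 days (log2 fold change 0.48 ± 0.07, edgeR adjusted p = 3.64e-05) and 1.30-fold at 6 days (log2 fold change 0.37 ± 0.07, edgeR adjusted p = 0.000414), the largest change of the 55 genes at 3 days. Over the alternatives the adjusted p was 8.99e-08 to 0.000672 at 3 days and 5.21e-05 to 0.00635 at 6 days. Its level was low, 6.10 CPM per kilobase, below all of the 55 but Brca2.

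E2f8, its close relative with the same repressor role (chr7:48866429-48882073), was lower. It had 176, 176 and 182 CPM with WM-1119, against 187, 195 and 190.2 CPM with DMSO at 3 days. Levels of E2f8 at 6 days were 175, 175 and 178 CPM with WM-1119, against 196, 201 and 208 CPM with DMSO, with WM-1119 libraries lower on each day, and it was called at 6 days (log2 fold change -0.20 ± 0.04, edgeR adjusted p = 0.00102) and not at 3 days (log2 fold change -0.10 ± 0.04, edgeR adjusted p = 0.0838). The 6-day call was lost only in the fit without the 5 Col1a1 libraries (0.0825), over a range of 0.000114 to 0.0825. E2f1, the activator whose gene is itself an E2F target (chr2:154559400-154569892), had 76.3, 76.2 and 74.9 CPM with WM-1119, against 71.7, 76.1 and 74.0 CPM with DMSO at 3 days. At 6 days E2f1 had 77.6, 78.9 and 79.9 CPM with WM-1119, against 78.1, 81.4 and 75.0 CPM with DMSO, and the groups overlap (log2 fold change 0.04 ± 0.05, edgeR adjusted p = 0.630 at 3 days; log2 fold change 0.01 ± 0.05, edgeR adjusted p = 0.881 at 6 days). E2f2, a second activator, had log2 fold changes of 0.03 and 0.02, and Melk, a mitotic kinase, -0.02 and 0.12.

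Of the cyclin E genes, whose products drive entry into S phase, 1 passed the test. Ccne1 (chr7:38097984-38107490) had 63.7, 58.4 and 58.5 CPM with WM-1119, against 54.1, 55.3 and 53.2 CPM with DMSO at 3 days. Levels of Ccne1 at 6 days were 64.0, 65.0 and 64.5 CPM with WM-1119, against 57.6, 58.4 and 60.9 CPM with DMSO, and WM-1119 libraries were higher on each day. It was called at 3 days (log2 fold change 0.15 ± 0.05, edgeR adjusted p = 0.0398) and missed the threshold at 6 days (log2 fold change 0.13 ± 0.05, edgeR adjusted p = 0.0602), where the fit with the replicate block gave 0.0389. A 6-day call of Ccne1 was also gained with upper-quartile scaling (0.0345) and without DMSO replicate 3 (0.0416) of 6 days. Its 3-day call was lost without WM-1119 replicate 1 (0.173) or 3 (0.0552) of 3 days, without DMSO replicate 1 (0.0946), 2 (0.0649) or 3 (0.101) of 3 days, without WM-1119 replicate 3 (0.0521) of 6 days, without DMSO replicate 2 (0.0519) of 6 days, with no filter on low counts (0.0527), under DESeq2 (0.0527), with the 5 Col1a1 libraries left out (0.0790) and at 1 common depth (0.0570), over a range of 0.0183 to 0.173. Ccne2 (chr4:11190433-11204779) had 47.3, 42.3 and 46.1 CPM with WM-1119, against 42.2, 39.4 and 38.0 CPM with DMSO at 3 days. At 6 days Ccne2 had 45.9, 42.2 and 46.1 CPM with WM-1119, against 42.1, 38.3 and 46.5 CPM with DMSO, so the groups were apart at 3 days alone, and it was not called (log2 fold change 0.18 ± 0.07, edgeR adjusted p = 0.0827 at 3 days; log2 fold change 0.08 ± 0.07, edgeR adjusted p = 0.445 at 6 days). A 3-day call of Ccne2 was gained without DMSO replicate 3 (0.0490) of 6 days, with upper-quartile scaling (0.0474), in a fit of only the groups compared (0.0435), with the replicate block (0.0426) and with the 5 Col1a1 libraries left out (0.0337).

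Of the 6 genes of chromatin and histone supply 1 rose and 1 fell at each time, Uhrf1 and Chaf1b at 3 days and Asf1b and Chaf1a at 6 days. These are 33.3% of the group, beside 24.5% and 30.7% of all tested genes. Uhrf1, which brings the maintenance methyltransferase to newly made DNA (chr17:56303337-56323486), had 350.0, 354 and 358 CPM with WM-1119, against 327, 314 and 327 CPM with DMSO at 3 days. Levels of Uhrf1 at 6 days were 326, 349 and 326 CPM with WM-1119, against 335, 342 and 325 CPM with DMSO, where the groups overlap. It rose at 3 days (log2 fold change 0.13 ± 0.04, edgeR adjusted p = 0.0221) and not at 6 days (log2 fold change -0.0014 ± 0.04, edgeR adjusted p = 0.983), and the difference between times was not called (edgeR adjusted p = 0.516). The 3-day call was lost without WM-1119 replicate 2 (0.0611) or 3 (0.0795) of 3 days, without DMSO replicate 2 (0.117) of 3 days and with the 5 Col1a1 libraries left out (0.0747), over a range of 0.00865 to 0.117. Dnmt1, that methyltransferase (chr9:20907206-20959888), had 534, 629 and 626 CPM with WM-1119, against 549, 589 and 578 CPM with DMSO at 3 days. At 6 days Dnmt1 had 569, 556 and 567 CPM with WM-1119, against 533, 559.6 and 526 CPM with DMSO, with overlap (log2 fold change 0.06 ± 0.05, edgeR adjusted p = 0.454 at 3 days; log2 fold change 0.06 ± 0.05, edgeR adjusted p = 0.389 at 6 days). It passed at 3 days without WM-1119 replicate 1 (0.0389) of 3 days. That library was low over long genes, and the part of this in the Dnmt1 values was not tested.

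The histone chaperones did not share a direction. Chaf1a, the large subunit of CAF-1, which deposits histones behind the fork (chr17:56040416-56068026), had 137, 141 and 147 CPM with WM-1119, against 148, 155 and 145 CPM with DMSO at 3 days. Levels of Chaf1a at 6 days were 133, 141 and 137 CPM with WM-1119, against 148, 153 and 155 CPM with DMSO, and all WM-1119 libraries were lower. It was called at 6 days (log2 fold change -0.15 ± 0.05, edgeR adjusted p = 0.0177) and not at 3 days (edgeR adjusted p = 0.259). The call was lost without WM-1119 replicate 1 (0.0667) or 3 (0.0544) of 6 days. It was also lost without the 5 Col1a1 libraries, where the log2 fold change was -0.18. Over the other fits the adjusted p was 0.00795 to 0.0667. Chaf1b, the middle subunit of the same complex (chr16:93883900-93906115), had 53.9, 53.2 and 54.8 CPM with WM-1119, against 58.0, 62.4 and 64.2 CPM with DMSO at 3 days. At 6 days Chaf1b had 56.1, 60.6 and 56.6 CPM with WM-1119, against 58.2, 64.4 and 61.6 CPM with DMSO, with the groups apart at 3 days and overlapping at 6 days. It fell at 3 days (log2 fold change -0.19 ± 0.06, edgeR adjusted p = 0.0185) and not at 6 days (edgeR adjusted p = 0.279). That call was lost without WM-1119 replicate 2 (0.0736) of 3 days, without DMSO replicate 3 (0.0788) of 3 days, with the 5 Col1a1 libraries left out (0.0795) and at 1 common depth (0.0571), over 0.0107 to 0.0795.

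Asf1b, which hands new histones to CAF-1 (chr8:83955694-83970195), had 132, 131 and 131 CPM with WM-1119, against 125, 129 and 116 CPM with DMSO at 3 days. Levels of Asf1b at 6 days were 142, 149 and 148 CPM with WM-1119, against 126, 128 and 126 CPM with DMSO, and WM-1119 libraries were higher on each day. It rose at 6 days (log2 fold change 0.21 ± 0.05, edgeR adjusted p = 0.00153) and not at 3 days (log2 fold change 0.09 ± 0.05, edgeR adjusted p = 0.174). The 6-day call was lost only in the fit without the 5 Col1a1 libraries (0.118), over a range of 0.000381 to 0.118. Slbp, which binds the stem-loop of histone mRNAs, was called at neither time (log2 fold change 0.12 and 0.04). A 3-day call of Slbp was gained with upper-quartile scaling (0.0404) and in a fit of only the groups compared (0.0446).

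**Figure D4:**
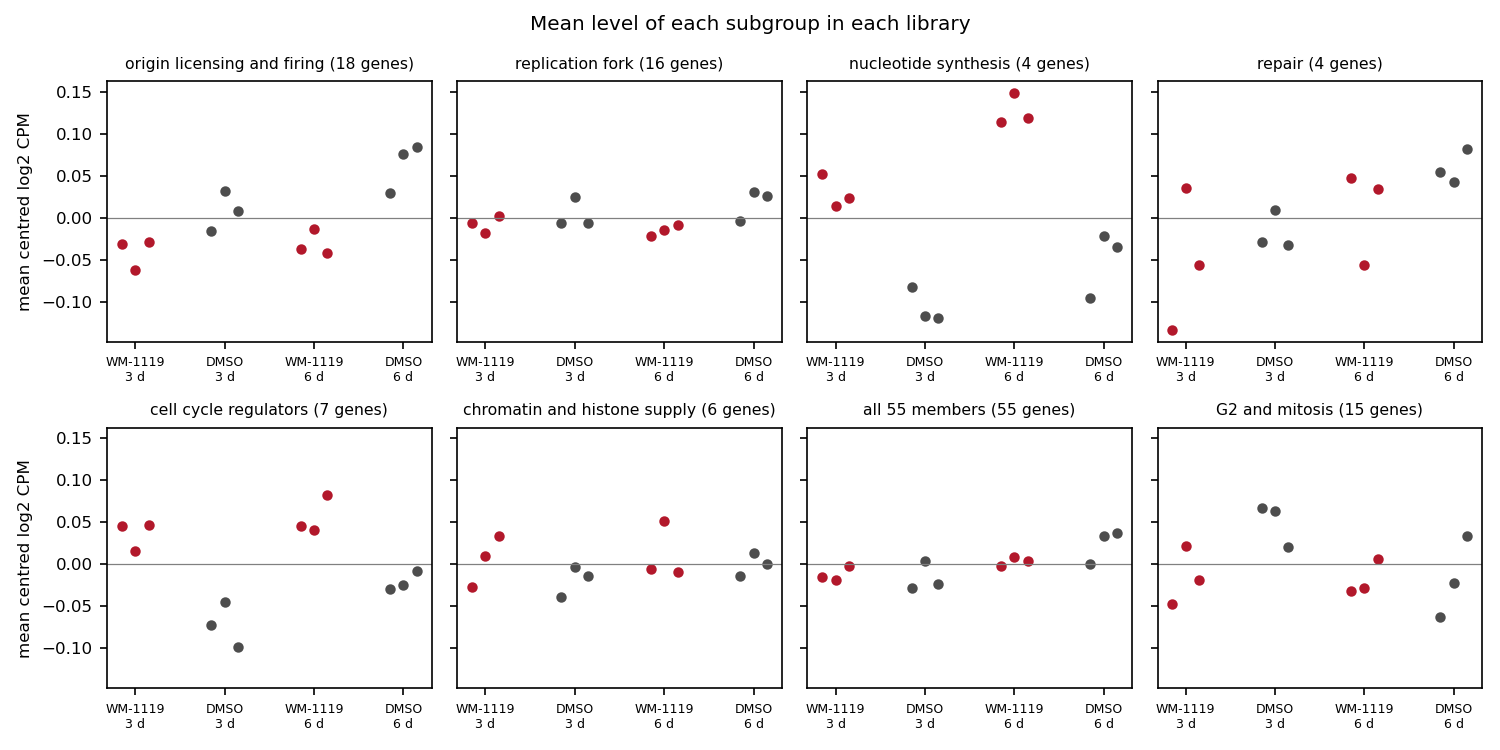
Mean over the genes of a group of log2 CPM, each gene centred on its mean over 12 libraries, in each library of WM-1119 (red) and DMSO (dark grey) at 3 and 6 days; the last panel holds 15 genes of G2 and mitosis for comparison. The mean of origin licensing genes lies lower with WM-1119 at each time, and those of nucleotide synthesis genes and cell cycle regulators lie higher. Single genes differ from these means: Rrm1 and Rrm2 were called at neither time, and E2f8 was lower at 6 days while E2f7 was higher. The 55 genes together lie within 0.04 of 0 in all libraries.

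Mean levels over each group of genes, in log2 CPM centred on each gene's mean, describe the same values by library. The 18 licensing and firing genes stood at -0.03, -0.06 and -0.03 with WM-1119, against -0.02, 0.03 and 0.01 with DMSO at 3 days. At 6 days they stood at -0.04, -0.01 and -0.04 with WM-1119, against 0.03, 0.08 and 0.08 with DMSO, so that all WM-1119 libraries were the lower ones on each day. The 4 nucleotide synthesis genes stood at 0.05, 0.01 and 0.02 with WM-1119, against -0.08, -0.12 and -0.12 with DMSO at 3 days. The nucleotide synthesis genes at 6 days stood at 0.11, 0.15 and 0.12 with WM-1119, against -0.10, -0.02 and -0.04 with DMSO. Here all WM-1119 libraries were the higher ones on each day, while of these 4 genes Tk1 and Tyms alone were called. The means of cell cycle regulators were also higher in all WM-1119 libraries on each day. For repair genes, chromatin genes and the 55 genes together the libraries overlapped on both days. Those of fork genes overlapped at 3 days, and at 6 days all WM-1119 libraries were lower.

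Levels differed far more between genes than between treatments. Per kilobase of gene length, over all 12 libraries, Rrm2 stood highest with 303 CPM per kilobase, followed by Pcna with 288, Mcm6 with 205, Mcm7 with 195 and Rrm1 with 146 CPM per kilobase. The lowest were Brca2 with 4.90, E2f7 with 6.10, Gins3 with 11.5, Orc1 with 11.7 and Melk with 12.9 CPM per kilobase. Rrm2 was above 98.5% of all tested genes on this scale, and Brca2 above 29.4%. The order of genes on this scale carries the gene lengths of the count table, which may not match the transcripts used in these cells.

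Averaged over both times, 9 of the 55 genes were higher and 17 lower, 47.3% in all beside 41.9% of all tested genes. Of all tested genes 20.6% were higher and 21.3% lower in this comparison, so the 30.9% of replication genes called lower exceeded that share and the 16.4% called higher did not. The median log2 fold change was -0.0026 for the 55 genes and -0.0020 over all tested genes. Their median standard error was 0.036, against 0.053 over all tested genes, so smaller changes could pass. The part of this in the shares called was not tested. The 5 genes called here and at neither single time were Mcm3, Pold1, Rfc4, Fen1 and Lig1, and Uhrf1 was called at 3 days and not here. In this comparison 11 of the 26 calls were kept in all of 21 alternatives, those of Mcm6, Cdc6, Dbf4, Orc1, Rpa2, Tyms, Tk1, Msh6, E2f7, E2f8 and Asf1b. Without the 5 Col1a1 libraries 4 genes were higher and 9 lower. Among the genes called in this comparison alone, the call of Rfc4 was lost with the 5 Col1a1 libraries left out (0.353), over a range of 0.00284 to 0.353. Mcm3 was lost without WM-1119 replicate 1 (0.0551) or 2 (0.0608) of 3 days, without DMSO replicate 2 (0.0609) of 3 days, without WM-1119 replicate 1 (0.0636) or 3 (0.0581) of 6 days, with upper-quartile scaling (0.0706) and with the 5 Col1a1 libraries left out (0.160), over 0.0133 to 0.160. Fen1 was lost without WM-1119 replicate 1 (0.0753) or 3 (0.0519) of 3 days, without DMSO replicate 1 (0.0979) of 3 days, without WM-1119 replicate 2 (0.137) of 6 days, without DMSO replicate 1 (0.103) or 2 (0.0621) of 6 days and with the 5 Col1a1 libraries left out (0.633), over 0.00988 to 0.633. Pold1 was lost without WM-1119 replicate 1 (0.123) or 3 (0.0653) of 3 days, without DMSO replicate 1 (0.0764) or 2 (0.107) of 3 days, without WM-1119 replicate 1 (0.0898) or 2 (0.0883) of 6 days, without DMSO replicate 1 (0.0663) or 2 (0.102) of 6 days, with RLE scaling (0.0509), with upper-quartile scaling (0.112), under DESeq2 (0.0587), with the 5 Col1a1 libraries left out (0.577) and at 1 common depth (0.0601), over 0.0223 to 0.577. Lig1 was lost without WM-1119 replicate 1 (0.0591), 2 (0.0673) or 3 (0.0681) of 3 days, without DMSO replicate 1 (0.123) or 2 (0.0514) of 3 days, without WM-1119 replicate 1 (0.0878), 2 (0.0896) or 3 (0.0683) of 6 days, without DMSO replicate 1 (0.101) of 6 days, with no filter on low counts (0.0677), with the 5 Col1a1 libraries left out (0.293) and at 1 common depth (0.0692), over 0.0106 to 0.293.

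Calls at the 2 times named partly different genes, yet no change between times was shown. Of the 22 genes called at either time 6 were called at both, all in the same direction, 7 at 3 days alone and 9 at 6 days alone. In the test of the difference of the WM-1119 effect, 6 days minus 3 days, edgeR called 0 of 55 genes, as did DESeq2 and limma voom, with 4 of 55 below an unadjusted p of 0.05, while 0.692% of all tested genes were called. The differences ran between -0.21 and 0.14 on the log2 scale. In DMSO alone, at 6 days against 3 days, edgeR also called 0 of the 55 genes, as did DESeq2 and limma voom, with 8 below an unadjusted p of 0.05, beside 0.842% of all tested genes. There 40 of the 55 had a positive change, and the largest was 0.15 on the log2 scale.

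The groups of libraries were fully apart for many genes. At 3 days the 3 WM-1119 libraries lay all above the 3 DMSO libraries for 14 of the 55 genes and all below for 13, 49.1% in all, beside 39.9% of all tested genes and 24.5% called by the test. At 6 days this held for 8 genes above and 13 below, 38.2%, beside 41.3% of all tested genes and 30.7% called. On the same side at both times were 6 genes above and 8 below, 25.5%, beside 25.7% of all tested genes. With 3 libraries a group, an exact permutation test gives no p under 0.1.

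A further 91 genes of the same pathways that are not among the 55 were looked up by lists of their partners and regulators, all of them tested. At 3 days 5 rose and 9 fell (15.4%), and at 6 days 9 rose and 18 fell (29.7%), beside 24.5% and 30.7% of all tested genes. The largest log2 fold changes among them belonged to genes of the E2F and RB family and G1 control and to Ezh2. Tfdp2, a DP subunit that pairs with E2F proteins, had a mean of 64.7 CPM with WM-1119, against 89.6 CPM with DMSO at 3 days and 68.1 CPM with WM-1119, against 93.8 CPM with DMSO at 6 days. It fell at both (log2 fold change -0.47 ± 0.05, edgeR adjusted p = 1.66e-06 at 3 days; log2 fold change -0.46 ± 0.05, edgeR adjusted p = 1.19e-06 at 6 days). Ezh2, the methyltransferase of Polycomb complex PRC2 and an E2F target, had a mean of 226 CPM with WM-1119, against 291 CPM with DMSO at 3 days and 232 CPM with WM-1119, against 295 CPM with DMSO at 6 days. It also fell at both (log2 fold change -0.36 ± 0.05, edgeR adjusted p = 7.19e-06 at 3 days; log2 fold change -0.35 ± 0.05, edgeR adjusted p = 8.82e-06 at 6 days).

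Of 20 genes of the E2F and RB family and of G1 control, 1 rose and 4 fell at 3 days and 5 rose and 5 fell at 6 days. The share called was 25.0% and 50.0%, beside 24.5% and 30.7% of all tested genes. Cdkn2c, an inhibitor of CDK4 and CDK6 that is itself an E2F target, fell at 3 days (log2 fold change -0.39 ± 0.08, edgeR adjusted p = 0.00104), with -0.19 ± 0.08 and edgeR adjusted p = 0.0697 at 6 days, or 0.0316 with the replicate block. Cdkn1a, the p53-induced CDK inhibitor, had 2.97, 4.05 and 4.51 CPM with WM-1119, against 4.55, 4.25 and 3.75 CPM with DMSO at 3 days. At 6 days Cdkn1a had 7.85, 8.60 and 6.60 CPM with WM-1119, against 3.27, 3.37 and 3.09 CPM with DMSO, so that the groups overlap at 3 days and are apart at 6 days. It rose 2.38-fold at 6 days (log2 fold change 1.25 ± 0.15, edgeR adjusted p = 1.17e-06) and not at 3 days (log2 fold change -0.12 ± 0.16, edgeR adjusted p = 0.647). This was the 1 gene of the 91 whose effect was called different between times (difference 1.37 ± 0.22, edgeR adjusted p = 0.00344). The difference had an adjusted p of 0.000117 to 0.538 over 21 alternatives and was lost only without the 5 Col1a1 libraries, where its size was 1.26 on the log2 scale.

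Of 15 other licensing and firing factors, those that changed numbered 2 at 3 days (1 rose, 1 fell) and 4 at 6 days (all fell). Orc5, a subunit of the origin recognition complex, fell at both times (log2 fold change -0.22 and -0.32, edgeR adjusted p = 0.0232 and 0.00139). Its 3-day call was lost without WM-1119 replicate 2 (0.0665) or 3 (0.0931) of 3 days, without DMSO replicate 1 (0.189) of 3 days, with the 5 Col1a1 libraries left out (0.0896) and at 1 common depth (0.0584), over 0.00195 to 0.189, and its 6-day call with the 5 Col1a1 libraries left out (0.121). Orc4, from the same complex, fell at 6 days (-0.22, edgeR adjusted p = 0.0232; -0.02 at 3 days), a call lost without WM-1119 replicate 2 (0.114) or 3 (0.0605) of 6 days, without DMSO replicate 1 (0.105) of 6 days and with the 5 Col1a1 libraries left out (0.301), over 0.00505 to 0.301. Donson, a firing factor, rose at 3 days (0.18, edgeR adjusted p = 0.0355; 0.15 at 6 days, where the replicate block gave 0.0399), and was lost without WM-1119 replicate 1 (0.0824), 2 (0.0812) or 3 (0.0778) of 3 days, without DMSO replicate 1 (0.110) or 2 (0.115) of 3 days, under DESeq2 (0.050021), with the 5 Col1a1 libraries left out (0.0890) and at 1 common depth (0.0830), over 0.0202 to 0.115.

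Of 20 other fork and polymerase subunits 2 rose and 1 fell at 3 days and 2 rose and 2 fell at 6 days. Rfc1, the large clamp loader subunit, fell at both times (log2 fold change -0.20 and -0.23, edgeR adjusted p = 0.00310 and 0.000451). Dna2, a nuclease that trims Okazaki flaps, rose at both (0.28 and 0.25, edgeR adjusted p = 0.000224 and 0.000446), and its 6-day call was lost with the 5 Col1a1 libraries left out (0.193). Of 10 other genes of nucleotide supply 0 rose and 1 fell at 3 days, and 1 rose and 2 fell at 6 days. Dut, which destroys dUTP and so feeds thymidylate synthesis, fell at both times (-0.26 and -0.26, edgeR adjusted p = 0.00125 and 0.000919), opposite to Tyms. Samhd1, which degrades deoxynucleotides, rose at 6 days (0.16, edgeR adjusted p = 0.0118; 0.13 at 3 days), a call lost without WM-1119 replicate 2 (0.0951) of 6 days and with the 5 Col1a1 libraries left out (0.134), over 0.00585 to 0.134.

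Of 16 other repair and checkpoint genes 1 rose and 0 fell at 3 days and 1 rose and 3 fell at 6 days. Blm, the Bloom syndrome helicase, fell at 6 days (log2 fold change -0.24, edgeR adjusted p = 0.00222; -0.07 at 3 days). Fanca, of the Fanconi anaemia core complex, rose at 3 days (0.21, edgeR adjusted p = 0.0322; 0.12 at 6 days), and was lost without WM-1119 replicate 2 (0.225) of 3 days, without DMSO replicate 1 (0.0856), 2 (0.112) or 3 (0.0544) of 3 days, with the 5 Col1a1 libraries left out (0.161) and at 1 common depth (0.0772), over 0.0145 to 0.225. Fanci, of the same pathway, rose at 6 days (0.15, edgeR adjusted p = 0.0320; -0.02 at 3 days), and was lost without WM-1119 replicate 1 (0.0834), 2 (0.0995) or 3 (0.0992) of 6 days, without DMSO replicate 1 (0.0989) or 2 (0.0639) of 6 days, with no filter on low counts (0.0827), with the 5 Col1a1 libraries left out (0.433) and at 1 common depth (0.0928), over 0.0194 to 0.433. Rad54l, a motor of recombination, was called at neither time (0.14 and 0.04).

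Of 10 other chromatin genes of S phase 0 rose and 2 fell at each time. Besides Ezh2, Asf1a, the sister chaperone of Asf1b, fell at 3 days (log2 fold change -0.16, edgeR adjusted p = 0.0272; -0.12 at 6 days), and was lost without WM-1119 replicate 2 (0.121) or 3 (0.0769) of 3 days, without DMSO replicate 2 (0.101) of 3 days, with upper-quartile scaling (0.0555), with no filter on low counts (0.0619), with the 5 Col1a1 libraries left out (0.160) and at 1 common depth (0.0502), over 0.0252 to 0.160. Hells, a chromatin remodeller, fell at 6 days (-0.17, edgeR adjusted p = 0.0171; -0.10 at 3 days), and was lost without WM-1119 replicate 2 (0.0584) of 6 days, without DMSO replicate 3 (0.0853) of 6 days and with the 5 Col1a1 libraries left out (0.0879), over 0.00411 to 0.0879.

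For comparison with the next phase of the cycle, 0 of 15 genes of G2 and mitosis rose and 4 fell at 3 days, and 0 rose and 1 fell at 6 days. The shares called lower were 26.7% and 6.67%, beside 12.6% and 15.0% of all tested genes. Cenpa, the histone variant of centromeres, fell at both times (log2 fold change -0.21 and -0.15, edgeR adjusted p = 0.000741 and 0.00875), and its 6-day call was lost with the 5 Col1a1 libraries left out (0.363). Cdc20, an activator of the anaphase-promoting complex, fell at 3 days (-0.13, edgeR adjusted p = 0.0407; -0.09 at 6 days), and was lost without WM-1119 replicate 1 (0.0830), 2 (0.0878) or 3 (0.111) of 3 days, without DMSO replicate 1 (0.0544), 2 (0.140) or 3 (0.0544) of 3 days, with upper-quartile scaling (0.0816), with no filter on low counts (0.0716), under DESeq2 (0.050033), with the 5 Col1a1 libraries left out (0.0782) and at 1 common depth (0.0878), over 0.0221 to 0.140. The proliferation marker Mki67 was called at neither time (0.05 and 0.17), with an edgeR adjusted p of 0.145 at 6 days, or 0.0409 with the replicate block.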

How the data were processed

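RNA was sequenced from 12 libraries (4 groups of 3) with a stranded mRNA kit, per the labels' protocols. The deposited values are raw counts per gene, made by the authors with featureCounts on mm10, per the submitters' processing notes. The aligner, the strand setting and the handling of multi-mapped reads were not given in the sources used. Of 27179 entries, 874 without an identifier (0.305% to 0.362% of the counts of a library) were left out, and 0 columns were unused. Symbols came from RefSeq by gene ID and matched 25275 of 26305 identifiers.

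Genes were filtered with filterByExpr, scaled by TMM and tested with edgeR's quasi-likelihood test (edgeR 4.0.16, R 4.3.3) in 1 model of 4 group means, with Benjamini-Hochberg adjustment over 11997 genes. The script was tested on simulated data. DESeq2 1.42.0, limma 3.58.1 (voom), other scalings and filters, a replicate block, single libraries left out and a common depth were alternatives, and the fits without the 5 Col1a1 libraries, at a common depth and with a block at 6 days alone were added after seeing the data. Same-numbered libraries of 6 days deviated together (correlations over genes of 0.193, 0.144 and 0.243), those of 3 days did not (-0.02, 0.04 and 0.0064). A block at 6 days alone was fitted for this reason, though the labels name no culture or day that pairs libraries. WM-1119 replicate 1 of 3 days and DMSO replicate 3 of 6 days, which share no number, reached 0.142. Calls reported are from the fit without a block unless stated.

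The 55 genes and all lists were chosen with earlier results of these data known. Named with values in every library were the 2 genes of each role group with the smallest p at each time and 16 chosen genes, further genes called in any comparison with their log2 fold change, and the 2 genes with the smallest p at each time of each other list of the replication, E2F and mitosis pathways. Depth per library is given in the report, and the smallest count of any of the 55 genes was 372.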

Additional observations from a re-analysis of the deposited data

Results flagged for a closer look

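Cdkn1a, from the list of E2F, RB and G1 control genes, was the 1 gene of the 55 and of the other 91 pathway genes whose WM-1119 effect was called different between 6 and 3 days. The difference was 1.37 ± 0.22 on the log2 scale (edgeR adjusted p = 0.00344), with all 3 WM-1119 libraries above all DMSO libraries at 6 days and overlap at 3 days. Levels were low, at 7.85, 8.60 and 6.60 CPM with WM-1119, against 3.27, 3.37 and 3.09 CPM with DMSO at 6 days. The adjusted p ran over 0.000117 to 0.538 in 21 alternatives and missed the threshold only without the 5 Col1a1 libraries, where the difference was 1.26 on the log2 scale.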

How the results depend on the processing

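No call changed direction under any alternative run, while 53 of the 111 values that were not called, over both times and the average, had the other sign in at least 1. Leaving out 1 library at a time gave, at 3 days, 3 to 8 genes called higher and 2 to 7 lower. The ranges were 4 to 6 higher and 6 to 12 lower at 6 days, and 6 to 10 higher and 14 to 17 lower in the average. Without the 5 Col1a1 libraries 2 genes were lower at 3 days, 1 was lower at 6 days, and 4 were higher and 9 lower in the average; this fit has fewer libraries, and 1 a group at 6 days. All other counts stayed within 1.5 times those reported. Calls kept in every alternative numbered 4 of 13 at 3 days (Tyms, Tk1, Msh6 and E2f7), 3 of 15 at 6 days (Tyms, Tk1 and E2f7) and 11 of 26 in the average. The replicate block over all libraries gave 7 higher calls and 7 lower ones at 3 days, 4 and 11 at 6 days, and 10 and 18 in the average, and gained Ccne2 at 3 days. With the block in the libraries of 6 days alone 6 were higher and 13 lower, with Mcm3, Mcm6, Ccne1 and Pola2 gained and no call lost. It also gained Donson, Cdkn2c and Mki67 at 6 days among the other genes named, and changed no other 6-day call of the genes named. The tests between times, of the WM-1119 effect and in DMSO, called 0 of the 55 genes in every alternative, DESeq2 and limma voom included, with 4 and 8 at an unadjusted p under 0.05 in edgeR. The average and the difference had no fit of only the groups compared, since they use all groups. RLE scaling moved no level by more than 0.378%.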
